A study of Mus musculus with 5 samples.

Results

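The CLCA genes measured here were Clca1, Clca2, Clca3a1 and Clca3b of the mouse. Their members were the probe sets that the array's gene annotation assigns to 1 of these genes and to no other gene, which gave 6 of 45101 probe sets: 2 for Clca1, 2 for Clca3a1 and 1 each for Clca2 and Clca3b. RNA came from tracheal epithelial cells, sorted by flow cytometry, of C57BL/6 mice of both sexes, 8 to 12 weeks old, and each of the 5 arrays took its RNA from a separate pool of 10 to 15 animals. The 3 duct arrays came from the upper part of the trachea, where cells were sorted by a surface antigen from what was left once pronase had taken off the surface epithelium. The 2 basal arrays came from the lower part, where surface epithelium was freed with dispase and sorted by antigens that included ITGA6. Enzyme, tracheal section and sort gate therefore changed together with the cell type, and their parts in a difference cannot be told apart. The labels name no treatment of the animals.

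CLCA proteins were named as calcium-activated chloride channel regulators. They are secreted or membrane-tethered proteins with a metalloprotease domain that cuts the protein itself, and they are not thought to form the channel pore. In human cells a fragment of CLCA1 raises the amount of ANO1, a calcium-activated chloride channel, at the cell surface. Mouse Clca1, also known as gob-5, is a product of mucous (goblet) cells that rises with interleukin-13 in allergic airways. CLCA2 is known from human stratified epithelia and mammary cells as a transmembrane protein induced by p53 and linked to cell adhesion. Symbols of the family have changed: the reference gene table lists Clca1 as an older name of Clca3a1, Clca2 among the older names of Clca1, Clca5 as an older name of Clca2, and Clca4 as one of Clca3b.

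The family lies as a single run on mouse chromosome 3. In the RefSeq gene table of assembly GRCm38.p6 the order is Clca3a1, Clca3a2, Clca3b, Clca4c-ps, Clca4b, Clca4a, Clca1 and Clca2, with no other protein-coding gene between the first and the last. RefSeq start regions were at hand for 3 of the 4 genes, all but Clca1. The 250 bases before the start are shown for Clca3b, the gene that passed the test, and for Clca2, whose arrays separated in the other direction, so that the windows can be compared. Both are written 5′ to 3′ on the minus strand, the strand of the genes. Capitals mark any match, on either strand, to a short list of motifs. These are TATAAA (the TATA box), CCAAT (the CCAAT box) and TGANTCA (a loose form of the AP-1 site that takes any central base). The others are TGTTTNC (a forkhead site) and TTC and GAA set 4 bases apart (a STAT site).
Clca3b, chr3:144849303-144849552 (GRCm38.p6, minus strand): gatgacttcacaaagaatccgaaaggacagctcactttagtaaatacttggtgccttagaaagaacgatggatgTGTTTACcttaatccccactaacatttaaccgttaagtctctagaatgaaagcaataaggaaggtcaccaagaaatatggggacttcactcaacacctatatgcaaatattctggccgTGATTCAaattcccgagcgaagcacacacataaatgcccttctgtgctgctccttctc
Clca2, chr3:145099107-145099356 (GRCm38.p6, minus strand): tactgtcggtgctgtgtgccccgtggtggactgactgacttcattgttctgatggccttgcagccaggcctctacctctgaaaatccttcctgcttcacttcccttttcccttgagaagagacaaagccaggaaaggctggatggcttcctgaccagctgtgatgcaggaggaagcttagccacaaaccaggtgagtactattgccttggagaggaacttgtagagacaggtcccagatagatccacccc
The Clca3b window held 1 match to TGTTTNC, from 176 to 170 bases before the start, and 1 to TGANTCA, from 58 to 52 bases before it. The Clca2 window held 0 matches to the 5 motifs. Of 32851 RefSeq windows of this length, 17.8% held TGTTTNC, 6.75% TGANTCA, 12.4% TATAAA, 33.8% CCAAT and 5.85% the STAT motif. The share of G and C was 41.6% for Clca3b and 52.8% for Clca2, with a median of 52.4% over all windows. A match is a run of letters and does not show that a factor binds there.

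Values are linear intensities in arbitrary units that the authors scaled to a common mean. A probe set's intensity is set against the same probe set on other arrays only, because different probe sets bind with different strength. As a measure of background, 27 probe sets for Bacillus transcripts were used, and the brightest of them stood at 39.5 to 61.9 on the duct arrays and at 59.7 and 86.5 on the basal arrays. The share of all probe sets above that level was 67.2% to 74.6% on duct arrays, and 71.6% and 62.5% on basal arrays. Duct replicate 1 stood apart: its median was 92.3, while the remaining 4 arrays had medians of 146.6 to 152.8. The labels were checked against cell type markers. Krt5, a keratin of airway basal cells, measured 16830, 17750 and 19821 in duct and 12334 and 11617 in basal cells, and Trp63, which encodes the basal cell regulator p63, 7243, 7053 and 6944 in duct and 9891 and 8038 in basal cells. Krt15, a further basal keratin, averaged 22324 in duct and 20227 in basal cells. Krt14, also a basal keratin, was higher in duct cells, at a mean of 19816 against 1430 in basal cells (log2 fold change 3.78, limma adjusted p = 0.00595), while Ngfr, a neurotrophin receptor of basal cells, averaged 542 in duct and 1806 in basal cells (-1.76, adjusted p = 0.0786). Of 5 gland cell genes, Dcpp1 and Bpifa2 lay under the brightest Bacillus control on all 5 arrays. Ltf, the lactoferrin gene, averaged 15911 in duct and 6905 in basal cells, Aqp5, a water channel, 8884 in duct and 9580 in basal cells, and Muc5b, a gel-forming mucin, 744 in duct and 750 in basal cells, none past the test. Tg, the thyroglobulin gene, measured 8779, 16062 and 20119 in duct cells, against 11.1 and 53.2 in basal cells. Of 11 marker lists the summed level was higher on all 3 duct arrays than on both basal arrays in 3 (airway basal, stratified squamous and thyroid follicular cells) and lower in 0, while it overlapped in 8. In RNA of sorted cells, fewer cells of a type and less RNA per cell cannot be told apart.

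The question of the comparison is how duct and basal cells of the airway differ in the CLCA genes. Clca3b was 4.07-fold lower in duct cells and was the 1 of the 4 genes that passed the test. Clca2 was higher on every duct array by 1.74-fold in the fit but did not pass. Clca3a1 was lower on every duct array and did not pass, and Clca1 varied more between the 2 basal arrays than between the groups. Fold changes give duct over basal cells as differences of log2(intensity + 16), and the added 16 makes those of dim genes too small. They were tested over 12536 genes with limma's moderated test and Benjamini-Hochberg adjustment, with the probe set of the highest mean log2 value standing for a gene and the dimmest 40% of probe sets left out. Of all genes tested, 0.973% were called at an adjusted p under 0.05, 0.136% lower in duct cells and 0.838% higher. By gene, 3 of the 4 CLCA genes had groups without overlap, 2 of them lower in duct cells, where 39.1% of all tested genes had such groups and 22.6% were lower. Of the 6 member probe sets, 4 entered the fit and 2 were left out as dim. Of those 4, 3 separated the groups, 2 of them lower in duct cells, where the shares over all 27022 bright enough probe sets were 35.6% and 20.7%.

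Clca3b showed the clearest separation. Its probe set, 1451823_at, measured 987, 858 and 1122 on the duct arrays, against 4269 and 3840 on the basal arrays. Every duct array lay under both basal arrays, and all 5 values were above the Bacillus controls. The means were 989 ± 132 in duct cells (SD, n = 3) and 4055 ± 304 in basal cells (SD, n = 2). The log2 fold change was -2.02 (SE 0.25, 95% interval -2.63 to -1.42, limma adjusted p = 0.0330), and the gene stood in place 73 from the lower end among 12536 fold changes, whose median was -0.12. When all 27022 bright enough probe sets were tested in place of genes, the same fold change had an adjusted p of 0.0739, where 0.0185% of probe sets were called lower. With any 1 of the 5 arrays left out, log2 fold changes were -2.12 to -1.93. The call by gene was lost without any 1 duct array, at limma adjusted p of 0.0919 (without duct replicate 1) to 0.148 (without duct replicate 3). Fits without a basal array keep only 1 of them, so for these only the fold change is given. The call was also lost with no filter on dim probe sets, at an adjusted p of 0.0893. In these settings at most 1 gene in all was called lower, so the loss is not particular to Clca3b. By their sum, which the brightest probe sets dominate, 0 of the 11 marker lists were lower on all duct arrays. Single markers were, as were 22.6% of all tested genes. These markers included the basal cell genes Ngfr (-1.76) and Trp63 (-0.33), Myh11, a smooth muscle myosin of the myoepithelial list (-2.72, adjusted p = 0.0806, with means of 41.7 in duct and 323 in basal cells), and Aqp5 (-0.11), and none of them passed the test. Other markers of the same lists, Krt5, Krt14, Krt15, Ltf and Acta2, were higher on all duct arrays, and of these Krt14 passed. Acta2, the other tested gene of the myoepithelial list, averaged 401 in duct and 130 in basal cells (limma adjusted p = 0.0751). The club cell genes Scgb3a2 and Cyp2f2, a secretoglobin and a cytochrome P450, were each lower on all duct arrays (22191 ± 1071 in duct and 32485 ± 287 in basal cells, and 25514 ± 614 in duct and 30111 ± 742 in basal cells), while the sum of the 4 club markers overlapped, at 72390 to 88514 on duct arrays and at 80466 and 123574 on basal arrays. Their part in the difference of Clca3b was not tested.

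Clca2 differed in the opposite direction. Its probe set, 1438109_at, measured 699, 724 and 615 on the duct arrays, against 358 and 412 on the basal arrays. All duct arrays lay above both basal arrays, by a gap that was larger than the spread within either group. The means were 679 ± 57.1 in duct cells (SD, n = 3) and 385 ± 37.9 in basal cells (SD, n = 2), with a log2 fold change of 0.80 (SE 0.24, 95% interval 0.21 to 1.38). The interval takes 1 gene at a time, and over all genes the limma adjusted p was 0.172, so the difference did not pass. Its size was 0.70 to 0.89 when single arrays were left out, and 0.93 and 1.00 with quantile normalization and with arrays centred on their medians. The 4 stratified squamous markers, Krtdap, Krt13, Krt4 and Sprr1b, were higher on the same arrays, all 4 past the test, with a summed level of 53512 to 70840 on duct arrays and of 7253 and 9321 on basal arrays. The airway basal list was also higher by its sum, at 63850 to 74520 on duct arrays and at 45554 and 43250 on basal arrays. So was the thyroid follicular list. The part of any of these cells in the value of Clca2 was not tested.

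Clca3a1 was measured by 2 probe sets near the background. The brighter, 1417852_x_at, measured 154, 95.1 and 66.4 on the duct arrays, against 178 and 195 on the basal arrays. All 5 values were above the Bacillus controls of their own array, and the duct arrays lay under the basal arrays, though duct replicate 1 came close to basal replicate 1. The means were 105 ± 44.5 in duct cells (SD, n = 3) and 186 ± 11.8 in basal cells (SD, n = 2), and the log2 fold change of -0.80 (SE 0.36, 95% interval -1.69 to 0.08) had a limma adjusted p of 0.305. The ending of its name marks a probe set that may bind related transcripts, so it may not measure Clca3a1 alone. The other probe set, 1417853_at, was too dim for the fit, with 25.2, 50.4 and 1.15 on the duct arrays, against 102 and 38.6 on the basal arrays. It was above the controls on 1 array, basal replicate 1, and its groups overlapped. A further probe set, 1460259_s_at, is annotated to both Clca3a1 and Clca3a2 and so belongs to neither. It measured 135, 247 and 188 on the duct arrays, against 232 and 248 on the basal arrays, which overlap.

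Clca1, the mucous cell gene, was set by single arrays. Its bright probe set, 1416306_at, measured 1615, 696 and 1115 on the duct arrays, against 441 and 6907 on the basal arrays. Basal replicate 1 was the lowest of the 5 arrays and basal replicate 2 the highest, 15.7 times as high as replicate 1, while the duct arrays lay between them within 2.32-fold of each other. The means were 1142 ± 460 in duct cells (SD, n = 3) and 3674 ± 4573 in basal cells (SD, n = 2), with a log2 fold change of -0.70 (SE 1.12, 95% interval -3.47 to 2.07, limma adjusted p = 0.777). The interval spans from 11.1-fold lower to 4.20-fold higher in duct cells. Without basal replicate 2 the fold change turned to 1.26 (adjusted p = 0.390), and without basal replicate 1 it was -2.66, within a range of adjusted p of 0.267 to 0.896 over the arrays left out. The other probe set, 1459889_at, too dim for the fit, measured 19.4, 53.7 and 59.8 on the duct arrays, against 69.6 and 133 on the basal arrays. All 3 duct values were under the Bacillus controls and both basal values above them. With these controls as background it was at least 1.87-fold lower in duct cells, a bound that has no test. Basal replicate 1 lay close to its control of 59.7, and with the 90th percentile of the controls no bound could be given. Basal replicate 2 was again the highest array of this probe set.

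**Figure D1:**
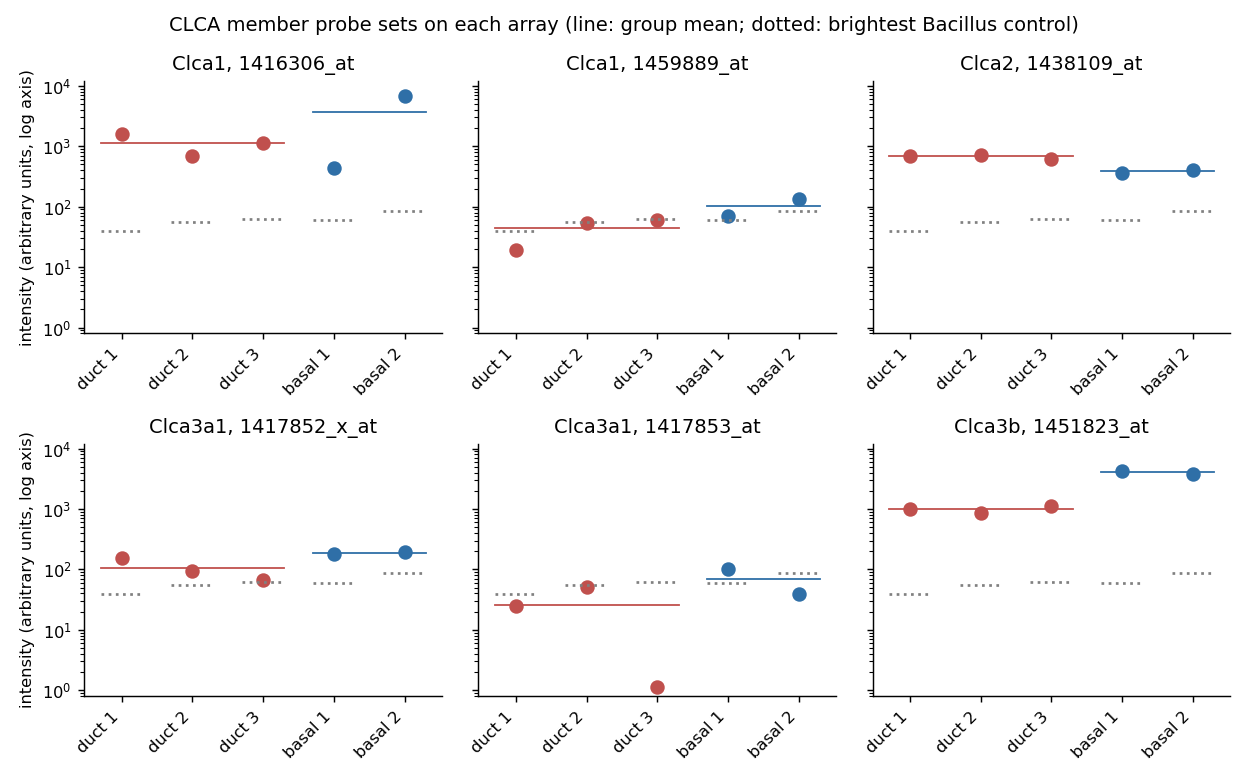
Intensity in arbitrary units (log axis) of each of the 6 CLCA member probe sets on the 3 duct and 2 basal arrays. Points are arrays, solid lines group means and dotted lines the brightest Bacillus control of each array. Clca3b lies between 858 and 1122 in duct and at 4269 and 3840 in basal cells, Clca2 is higher on all duct arrays, and Clca1 (1416306_at) spans 441 to 6907 between the basal arrays.

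Genes with an array pattern like that of each member were then looked for. Likeness was measured as the Euclidean distance between log2(intensity + 16) profiles, each centred on its mean over the 5 arrays, and it is a description over these 5 arrays with no test. The tested genes nearest to Clca1 were Sftpa1, a surfactant protein, at a distance of 0.34, Bpifb1, a secreted protein of the BPI fold family, at 0.58, Fcgbp, a protein of mucus, at 0.99, and Ints2, a subunit of the Integrator complex, at 1.26. Sftpa1 measured 952, 330 and 512 on duct arrays, against 239 and 3114 on basal arrays. Bpifb1 measured 1734, 961 and 1636 on duct arrays, against 845 and 9579 on basal arrays. In both, as in Clca1, basal replicate 2 was the highest array and basal replicate 1 the lowest. Both were chosen for their likeness to Clca1, so that they share this order follows from the choice. The order was found in 3.46% of all tested genes. Of the 18 tested genes of the interleukin-13 and goblet cell list 3 had it, namely Muc5b, Fcgbp and Retnla, a secreted resistin-like protein. Muc5b measured 1176, 297 and 759 on duct arrays, against 8.81 and 1491 on basal arrays. Of the 4 club cell markers 2 had this order. The secretoglobins Scgb1a1 and Scgb3a1 were lowest on basal replicate 1, at 9934 and 7615, and highest on basal replicate 2, at 32690 and 28609. Scgb3a2 and Cyp2f2 were nearly equal on both basal arrays, at 1.01 and 0.966 times on replicate 2 what they were on replicate 1. Of the 4 goblet cell markers, the 3 that were tested were higher on basal replicate 2 than on replicate 1, by 1.46 to 2.03 times, as were 51.6% of all tested genes, but 0 of the 3 had the order of Clca1 over all 5 arrays. The 4 goblet markers had a summed level of 2542 to 3421 on duct arrays and of 2580 and 5145 on basal arrays. Muc5ac, a defining goblet mucin, stayed under the filter at 36.6, 113 and 39.6 on duct arrays and at 34.2 on basal replicate 1, and on basal replicate 2 it lay under the Bacillus controls as well. The part of these cells in the Clca1 values was not tested.

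**Figure D2:**
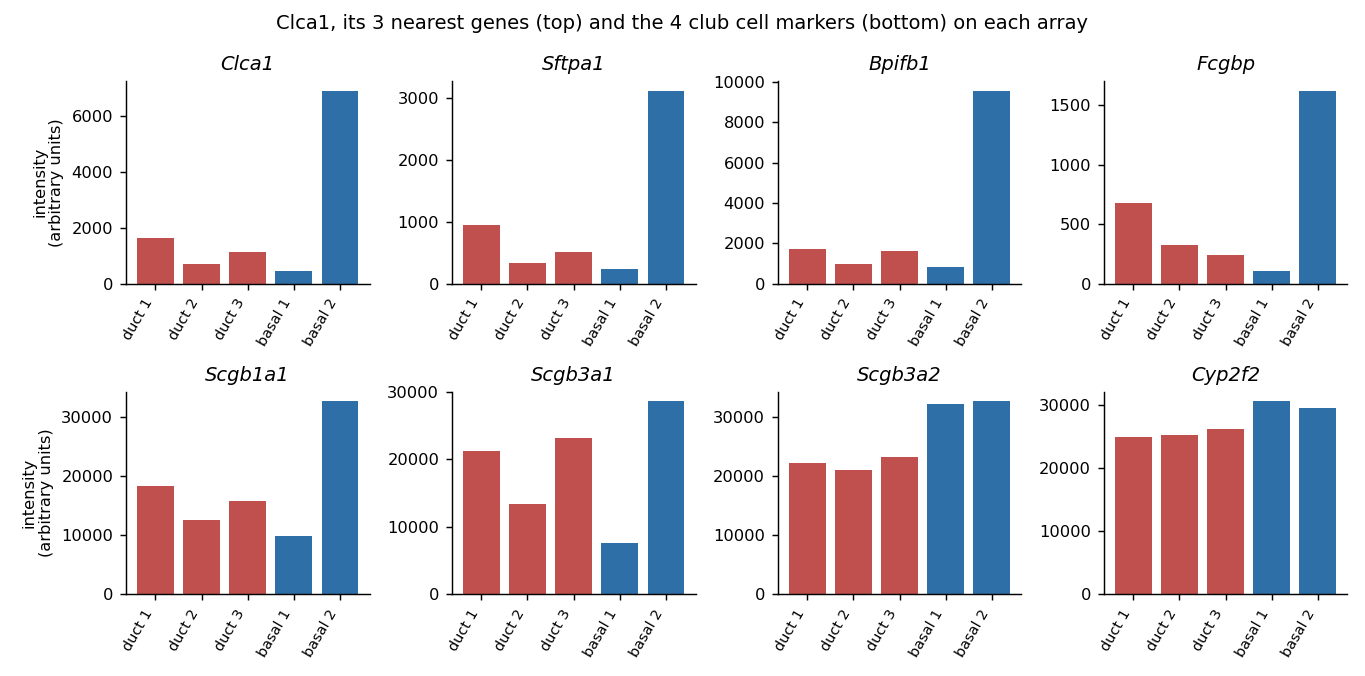
Intensity in arbitrary units (linear axes from 0, one scale per gene) of Clca1 (1416306_at), the 3 genes nearest to it, which were chosen for that likeness, and the 4 club cell markers on the 3 duct (red) and 2 basal (blue) arrays, with 1 bar per array. Basal replicate 2 is far above replicate 1 for Clca1 (6907 and 441), Scgb1a1 and Scgb3a1, and close to it for Scgb3a2 and Cyp2f2.

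The other members had their own nearest genes. Nearest to Clca3b were Heph, a ferroxidase, at a distance of 0.23, Saxo2, a microtubule-binding protein, at 0.24, Fam47e at 0.37 and Slitrk6, a transmembrane protein known from neurons, at 0.38. Heph measured 125, 111 and 136 on duct arrays, against 559 and 439 on basal arrays. Its arrays separated as those of Clca3b did, which follows from its choice by likeness. Nearest to Clca2 were Dlst, an enzyme of the citric acid cycle, at 0.10, Sox6, a transcription factor, at 0.11, Flvcr1, a membrane transporter, at 0.12 and Errfi1, a feedback inhibitor of the EGF receptor, at 0.12. Errfi1 measured 20222, 19370 and 17706 on duct arrays, against 10895 and 11515 on basal arrays. For Clca3a1 the nearest were Ccpg1, a receptor for the autophagy of endoplasmic reticulum, at 0.12, Zfp930, a zinc finger gene, at 0.13, Zbtb42, also a zinc finger gene, at 0.16 and Nr4a1, an immediate early nuclear receptor, at 0.16. Between the members themselves distances ran from 1.61 for Clca3a1 and Clca3b to 3.31 for Clca1 and Clca3b; the nearest genes are the smallest distances out of 12536 genes, so the 2 sets of distances do not compare.

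**Figure D3:**
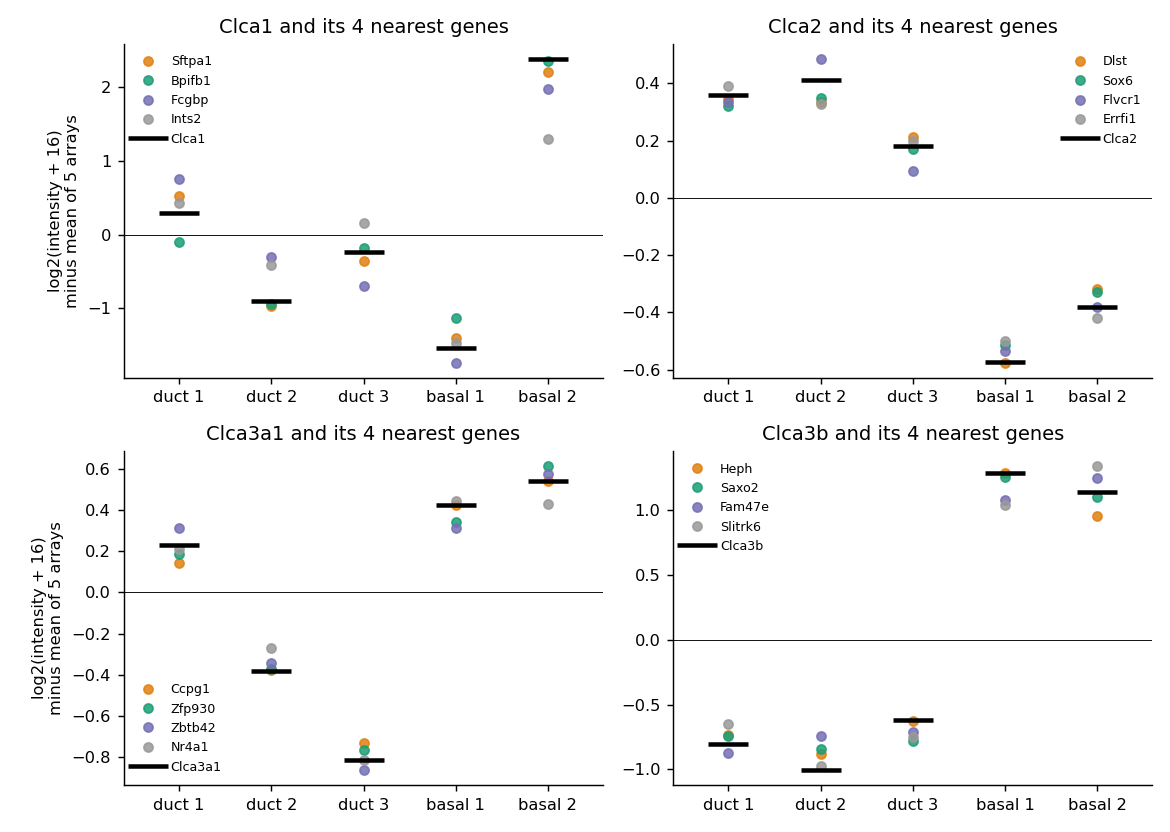
log2(intensity + 16) minus the mean of the 5 arrays, for each CLCA gene (black bars) and its 4 nearest genes (points), on the 3 duct and 2 basal arrays. The Clca3b panel separates duct from basal arrays, while the Clca1 panel is set by basal replicate 2.

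Genes around the members were read in chromosomal order. Clca3a2, a close relative beside Clca3a1, had 1 tested probe set with 50.1, 171 and 33.8 on duct arrays, against 116 and 131 on basal arrays (log2 fold change -0.71, adjusted p = 0.559). Its other probe set lay under the Bacillus controls on all 5 arrays. Clca4a, Clca4b and the pseudogene Clca4c-ps were too dim for the fit. Clca4a measured 53.02, 102 and 31.6 on duct arrays and 121 on each basal array, lower on all duct arrays. Clca4b measured 26.4, 80.4 and 96.8 on duct arrays and 45.03 and 21.2 on basal arrays, which overlap. Clca4c-ps measured 58.6, 146 and 142 on duct arrays and 49.9 and 38.0 on basal arrays, where both values were under the controls. That makes it at least 1.49-fold higher in duct cells, with no test. With the 90th percentile of the controls no bound could be given. Of the nearest tested genes outside the family, Selenof, an endoplasmic reticulum selenoprotein, and Sh3glb1, an endophilin family protein, lie beyond Clca3a1, with log2 fold changes of 0.07 and 0.34. Odf2l, a centriole-associated gene, and Znhit6, a factor of small nucleolar RNP assembly, lie beyond Clca2, at -0.09 and -0.07. None of the 4 passed the test, with limma adjusted p of 0.517 to 0.917.

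**Figure D4:**
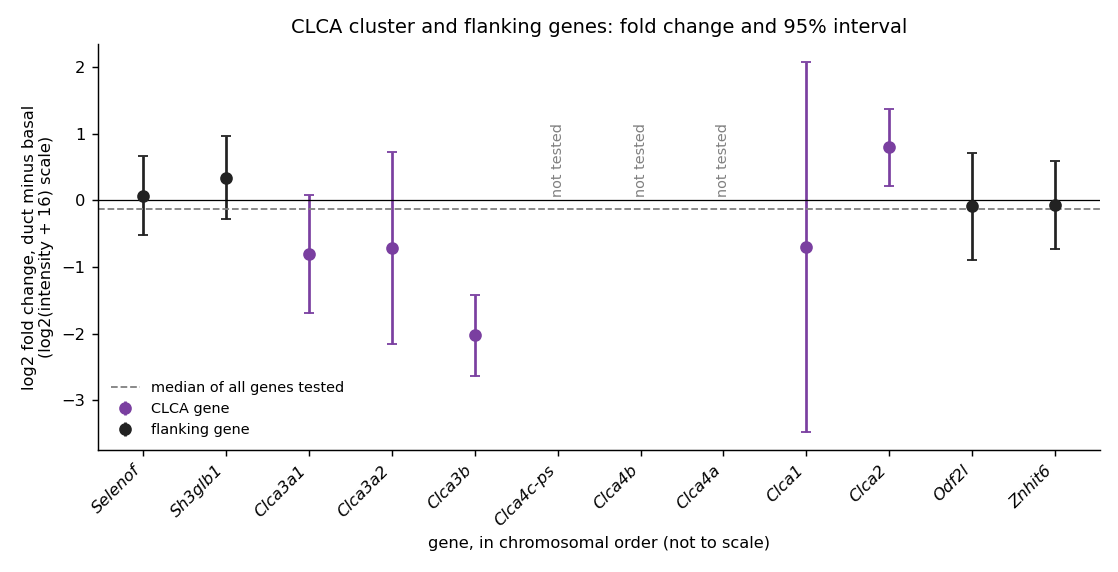
Duct over basal fold change, as a difference of log2(intensity + 16), for the 8 CLCA genes (purple) and 4 flanking genes (black) in chromosomal order, not to scale. Bars are 95% intervals from limma, the dashed line is the median of all genes tested (-0.12), and 3 dim genes were not tested. The interval of Clca3b, -2.63 to -1.42, lies below those of the flanking genes.

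Genes of the pathways in which CLCA proteins are known to act were read from 5 lists. Among 16 genes of calcium-activated chloride channels and their relatives, 12 had a probe set of their own and 8 were tested. With limma 0 were called in either direction. An unadjusted p under 0.05 was reached by 1 gene that was higher and 1 that was lower, against 7.91% and 10.6% of all genes tested, and the median log2 fold change was -0.31, against -0.12 over all genes. Ano1, the channel that human CLCA1 acts on, measured 2179, 2110 and 1667 on duct arrays, against 3813 and 2448 on basal arrays. The arrays did not overlap, but the log2 fold change of -0.63 (SE 0.30) had an adjusted p of 0.333. Ano6, a channel and lipid scramblase, was at -0.19 (adjusted p = 0.719). Of 18 genes of other chloride transport 10 were tested and 0 called by limma, with 0 in either direction at an unadjusted p under 0.05 and a median of -0.001. The log2 fold change of Slc26a2, a sulfate transporter, was 0.01 (adjusted p = 0.993), and that of Slc12a2, a sodium, potassium and chloride cotransporter, 0.50 (adjusted p = 0.371).

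Of 20 genes of the interleukin-13 response and of goblet cells 18 were tested, of which 1 rose in duct cells and 0 fell. Over all genes tested these shares were 0.838% and 0.136%. Before adjustment, 1 had a limma p under 0.05 with a higher level and 1 with a lower one, against 7.91% and 10.6% of all genes. The median log2 fold change was -0.20. The one that rose was Serpinb2, an inhibitor of plasminogen activators, which measured 3504, 1549 and 2564 on duct arrays, against 265 and 238 on basal arrays. All duct arrays were above both basal arrays (log2 fold change 3.18, SE 0.39, limma adjusted p = 0.0330). Without single arrays its fold change was 2.91 to 3.49. It no longer passed without any 1 duct array (limma adjusted p of 0.0549 to 0.160), with no filter on dim probe sets (0.0801) or with the replicate block (0.277). In these settings at most 38 genes in all were called higher, and 0 with the block. Il13ra1, a chain of the interleukin-13 receptor, measured 3976 ± 746 in duct (SD, n = 3) and 6024 ± 609 in basal cells (SD, n = 2), at -0.61 (adjusted p = 0.307). Agr2, a protein disulfide isomerase that mucin folding needs, measured 2634 ± 554 in duct and 3560 ± 1709 in basal cells, at -0.37 (adjusted p = 0.654).

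Of 22 targets of p53 19 were tested, of which 1 rose and 0 fell, against 0.838% and 0.136% of all genes tested. Before adjustment, 4 had a limma p under 0.05 with a higher level and 2 with a lower one, against 7.91% and 10.6% of all genes. The median log2 fold change was 0.03. The target that rose was Pmaip1, which encodes the cell death protein NOXA. It measured 3126, 2672 and 2079 on duct arrays, against 683 and 608 on basal arrays (log2 fold change 1.98, SE 0.28, limma adjusted p = 0.0474). That call, too, was lost without any 1 duct array, at log2 fold changes of 1.85 to 2.14 (limma adjusted p of 0.103 to 0.148). In those fits at most 38 genes in all were called higher. It was lost as well with a pseudocount of 1 (0.0593), with no filter (0.110) and with the replicate block (0.295), which left 0 genes called. Cdkn1a, an inhibitor of cyclin-dependent kinases, measured 14165, 11838 and 12949 on duct arrays, against 5241 and 4634 on basal arrays. Its arrays separated, at a log2 fold change of 1.39 (SE 0.24), which did not pass (adjusted p = 0.0691). Ei24, a p53-induced gene of the endoplasmic reticulum, was lower on all duct arrays, at -0.67 (adjusted p = 0.318). Among the other targets, Ccng1, Sesn1, Trp53inp1, Btg2 and Plk3 were lower on all duct arrays too. Sesn2, Aen and Tnfrsf10b were higher on all of them, and none of these passed.

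Of 11 genes of basal cell adhesion, chosen because CLCA2 is linked to integrin beta 4 and to cell contacts, all 11 were tested and 0 were called by limma. Before adjustment, 3 had a p under 0.05 with a higher level and 0 with a lower one, where all tested genes had 7.91% and 10.6%, and the median log2 fold change was 0.25. Ctnnb1, the gene of beta-catenin, was at -0.07 (adjusted p = 0.904), and Cdh1, that of E-cadherin, at 0.51 (adjusted p = 0.312). Itgb4 itself, chosen after its value was seen, measured 896, 700 and 701 on duct arrays, against 1045 and 1168 on basal arrays. It was lower on all duct arrays, at -0.53 (limma adjusted p = 0.326), where Clca2 was higher. Most of its list went the other way, with 7 positive and 4 negative fold changes among the 11. Mpzl3 (1.27), Col17a1 (0.71), Dst (0.61), Cdh1 and Itga6 (0.25) were higher on all duct arrays, and none of them passed.

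**Figure D5:**
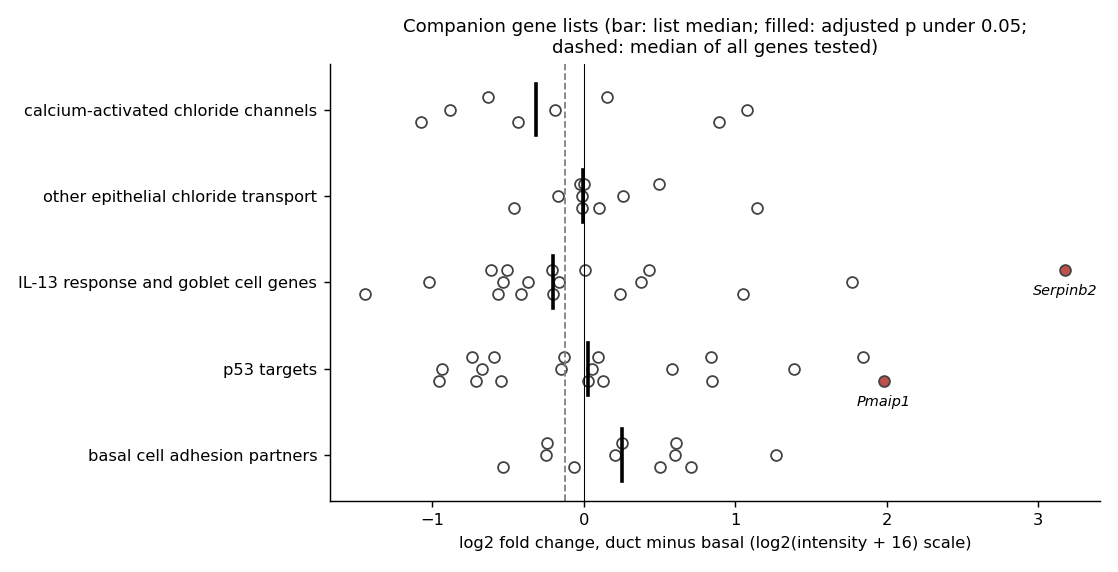
Duct over basal fold change, as a difference of log2(intensity + 16), for the tested genes of 5 lists around the CLCA proteins. Points are genes, filled where the limma adjusted p was under 0.05; black bars are list medians and the dashed line is the median of all genes tested (-0.12). Serpinb2 (3.18) and Pmaip1 (1.98) are the called genes, and list medians run from -0.31 to 0.25.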

How the data were processed

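The labels give RNA of sorted tracheal cells hybridised to Affymetrix mouse genome expression arrays. The authors deposited 1 linear intensity per probe set and array. Each array had been scaled, since its mean after trimming 2% of probe sets from either end is 500.0. No source used here names the software or the background correction, and no detection calls were used. Of 45101 probe sets 64 are controls, 34945 name 1 gene, 932 several and 9160 none.

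Fold changes (duct minus basal, log2(intensity + 16), no further normalization) were tested 2-sided on all 5 arrays with limma 3.58.1 (lmFit, then eBayes; R 4.3.3). The probe set with the highest mean log2 value stood for a gene, the lowest 40% were left out and p-values were adjusted by Benjamini-Hochberg over 12536 genes or 27022 probe sets. Alternatives were other normalizations, pseudocounts, filters, variance fits, a replicate block, averaged probe sets and each array left out. The fit was also run on data simulated from its own model without array effects, which cannot show how well it holds for these 5 arrays.

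A lower bound sets the brighter group's mean log2 intensity against the dim group's, with each dim array raised to its brightest Bacillus control. Members, gene lists and named genes were chosen with earlier results of these data known. Named were all members, other CLCA genes, called list members and the 2 with the highest mean intensity per list, the 4 nearest genes per member and the flanking genes, leaving out clone, RIKEN and predicted names; other list genes were not chosen by this rule. Any 2 arrays had at most 1 value in common, and 0 columns belonged to other samples. Sequences are from RefSeq (GRCm38.p6). Figures used matplotlib 3.10.9.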

Additional observations from a re-analysis of the deposited data

How the results depend on the processing

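With 5 arrays, 2 of them basal, the number of arrays limits every value. The log2 fold changes of Clca2, Clca3a1 and Clca3b kept their sign under all alternatives in which they were tested, and Clca1 kept it in all but 1: without basal replicate 2 it was 1.26, and its range over the arrays left out was -2.66 to 1.26. These ranges were 0.70 to 0.89 for Clca2, -1.08 to -0.56 for Clca3a1 and -2.12 to -1.93 for Clca3b. By gene, the call of Clca3b was lost with no filter (-2.02, adjusted p = 0.0893) and with the replicate block (-2.12, adjusted p = 0.295), within a range of adjusted p of 0.000223 to 0.295 over the alternatives other than arrays left out. Replicate 3 has no basal array, so with that block duct replicate 3 adds nothing to the fold change. With the block 0 genes were called in all, and with no filter 1 was called lower, so these losses are not particular to Clca3b. By probe set, Clca3b passed with a pseudocount of 64 (-1.97, adjusted p = 0.0319), with the lowest 60% left out (-2.02, adjusted p = 0.0204) and with an intensity trend and robust fit (-2.02, adjusted p = 0.000413), against 0.480 at most. The cause was not tested. Clca3a1 was not in the fit with the lowest 60% left out.

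The number of genes called in all was 105 higher and 17 lower in duct cells. It was 281 higher and 57 lower with arrays centred on their medians, 208 and 95 with a pseudocount of 64, 35 and 1 with no filter, 250 and 158 with the lowest 60% left out, and 565 and 377 with the intensity trend. Lower calls numbered 28 with quantile normalization and 49 with probe sets averaged by gene. Leaving out single arrays gave 0 to 38 higher and 0 to 1 lower; where 1 basal array remained, its spread was taken from the duct arrays. The numbers in the labels mark separate pools and pair no samples; with the replicate block 0 and 0 genes were called, and same-numbered arrays had deviations that correlated at -0.08 and -0.04. The median of all genes moved from -0.12 to 0.08 with median centring, a shift of 0.21. With the 90th percentile of the Bacillus controls as background, no lower bound could be given for the dim probe set of Clca1 or for that of Clca4c-ps.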
